A study of Mus musculus with 96 samples.

Results

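The genes described here are 34 genes of fatty acid oxidation, chosen by name as a metabolic pathway, and every array probe whose gene symbol in the platform's probe table is one of them was used. Of the 34 genes, 31 had at least 1 probe, 52 probes in all, out of 17711 named genes on the array. The transporter Slc25a20, the electron carrier subunit Etfb and the acyl-CoA synthetase Acsl1 had no probe under their names and were not analysed here. Of the 31 genes, 15 had more than 1 probe; the values given first are those of each gene's brightest probe over all arrays, and the other probes are given near the end.

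Fatty acids are activated to acyl-CoA, carried into mitochondria as carnitine esters, and shortened in a repeating spiral of dehydrogenation, hydration, a second dehydrogenation and thiolysis, whose electrons pass through electron transfer flavoprotein to the respiratory chain. Very long and branched chains start in peroxisomes, and acyl-CoA thioesterases release free fatty acids again. Many genes of the pathway are known targets of the nuclear receptor PPAR alpha, encoded by Ppara; brown fat, liver and muscle are known for high oxidation, whereas white fat mainly stores lipid.

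The samples were total RNA from DBA/2J mice, an inbred laboratory strain, killed at 12 weeks of age after 6 weeks on a standard breeding diet or on a high-fat diet and after a fast of 2 hours. Brown fat, gonadal, inguinal, mesenteric, perirenal and subcutaneous white fat, liver and muscle were each measured on Illumina Mouse-6 BeadChips. There were 6 biological replicates per tissue and diet, hence 16 groups and 96 arrays. The muscle was quadriceps, per the series' design text, which describes the subcutaneous pads as mainly inguinal and names gluteal and retroperitoneal pads; how these match the labels Inguinal Fat, Subcutaneous Fat and Perirenal Fat is not given. The labels give no sex, no composition of the diets and no chip, and each sample is a whole tissue piece, so that fewer cells of a type and less RNA per cell cannot be told apart.

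Values are log2 intensities after background correction and quantile normalization within a tissue. A difference is the high-fat mean minus the standard mean on that scale, ± its standard error, with 6 arrays per diet. A gene counts as called at a Benjamini-Hochberg adjusted p under 0.05 in limma's moderated test, adjusted over every gene and unnamed probe of that tissue's test. The intensity filter kept, in each tissue, the probes whose mean over its 12 arrays exceeded the median probe. Background correction with an offset of 50 shrinks the differences of dim probes, and the number of arrays limits the precision.

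In every fat tissue, high-fat replicates 3 to 6 were dimmer than all other arrays of the same tissue: on these 24 arrays the upper-quartile signal was 1.34 to 1.72 times the median signal. The factor was 1.7 to 2.49 for the 36 arrays of the standard diet, and 1.96 to 2.68 for high-fat replicates 1 and 2. Results in fat are therefore also given with a term for the 4 dim arrays of the tissue and over the bright arrays alone. Median scaling in place of quantile normalization moved the median difference of all genes to -0.23 in brown, -0.26 in gonadal, -0.27 in inguinal, -0.29 in mesenteric, -0.18 in perirenal and -0.21 in subcutaneous fat; in muscle it was -0.09 and in liver -0.02. The tissue labels were checked against defining markers. All 7 brown adipocyte markers with a probe passed the intensity filter in brown fat, all 7 skeletal muscle markers in muscle, all 6 adipocyte markers in every fat tissue and 4 of 5 hepatocyte markers in liver, where Tat did not. Skeletal muscle transcripts were also present in brown fat (summed normalized intensity of the 7 markers 105582 to 161615 on the standard diet) and, very unevenly, in perirenal fat (16160 to 226442), against 233133 to 258853 in muscle itself. Exocrine pancreas transcripts were high in mesenteric fat (6 markers, 250334 to 338649 on the high-fat diet and 706 to 328060 on the standard diet).

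On the standard diet, brown fat had the highest level of most oxidation genes. With all 96 arrays normalized together, brown fat had the highest mean for 20 of the 28 genes that passed the intensity filter in this comparison, and for 16 of them its 6 arrays lay above all 6 arrays of the next tissue. Liver was highest for 6 genes (3 without overlap), muscle for 1 and subcutaneous fat for 1. How often each tissue is highest over all features was not computed. Against the mean of the 5 white depots, 25 of 28 genes passed in brown fat and all 25 were higher, with a median difference over the 28 of 1.51 against 0.03 over all features tested; 56.6% of all features passed, and 28.7% were higher.

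Cpt1b, the muscle-type carnitine palmitoyltransferase that makes the carnitine ester at the outer mitochondrial membrane, varied widely across tissues. Its standard-diet mean was 13.78 ± 0.12 (SD, n = 6) in brown fat and 13.06 ± 0.15 in muscle, with no overlap between them. The white depots followed with 10.82 ± 0.52 in subcutaneous, 10.46 ± 1.06 in perirenal, 9.60 ± 0.38 in inguinal, 8.90 ± 0.24 in gonadal and 8.74 ± 0.28 in mesenteric fat, where each depot overlapped the next, and liver was lowest, below all of them, at 7.84 ± 0.16. Liver is known to use the other isoform, Cpt1a, whose probe ranged from 7.46 ± 0.11 in mesenteric fat to 7.95 ± 0.38 in liver, with overlap between liver and brown fat. Pdk4, the kinase that turns off pyruvate dehydrogenase and so spares glucose, was 3.34 ± 0.19 (adjusted p = 2.59e-20) above the white depots in brown fat and 2.38 ± 0.19 (adjusted p = 1.11e-15) above them in muscle, and its difference in liver was -3.42 ± 0.19 (adjusted p = 2.46e-21). Ppara itself was higher by 2.82 ± 0.11 (adjusted p = 1.55e-25) in brown fat and by 1.71 ± 0.11 (adjusted p = 2.83e-18) in liver; in muscle the difference was 0.03 ± 0.11 (adjusted p = 0.801).

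Within the mitochondrial spiral, brown fat exceeded white fat by 2.97 ± 0.08 for Acadl, the long-chain acyl-CoA dehydrogenase, by 2.22 ± 0.08 for Acads, its short-chain relative, and by 2.19 ± 0.17 for Acadm, the medium-chain one. Etfdh, which hands the electrons to ubiquinone, was higher by 2.86 ± 0.14. The peroxisomal thiolases were different: Acaa1b had its highest level in liver, at 15.03 ± 0.27 against 11.45 ± 0.17 in brown fat and 8.58 ± 0.55 in muscle, and its difference between brown and white fat was 0.03 ± 0.15 (adjusted p = 0.883). Acaa1a was likewise highest in liver (14.38 ± 0.16) without overlap with the next tissue. So was Decr2, the peroxisomal dienoyl-CoA reductase, at 9.39 ± 0.11 in liver and 7.86 ± 0.24 in brown fat. Eci3 followed neither pattern. It was highest in subcutaneous (8.54 ± 0.28) and perirenal fat (8.48 ± 0.15), whose arrays overlapped with each other, and its difference between brown and white fat, 0.14 ± 0.08 (adjusted p = 0.134), did not pass.

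**Figure D1:**
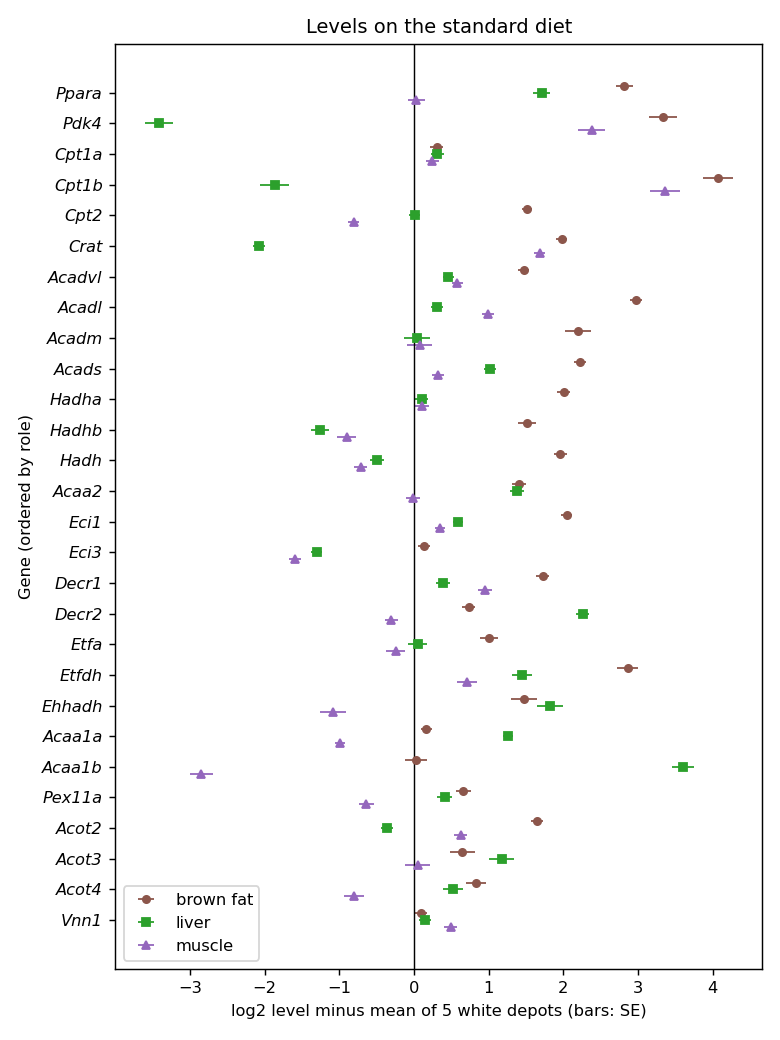
Level of each gene on the standard diet in brown fat, liver and muscle, minus the mean of the 5 white depots, on a log2 scale (x axis) with the standard error as bars, for 28 genes ordered by role (y axis). Brown fat lies to the right of 0 for 25 called genes, whereas liver and muscle points lie on both sides.

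In liver, 16 genes were higher and 7 lower than in white fat (79.5% of all features passed), and in muscle 12 were higher and 10 lower (76.2% of all features). These splits depended on the scaling: with median scaling they were 7 higher and 16 lower in liver, and 5 higher and 18 lower in muscle, while brown fat kept 23 higher and 1 lower. In these fits 18345, 18016 and 13156 of 22571 features passed in liver, muscle and brown fat. Decr2, Acot3, Acaa1b, Acaa2, Ppara and Acaa1a passed as higher in liver under both scalings, and Cpt1b, Pdk4, Crat and Vnn1 did so in muscle.

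The number and the direction of the calls for oxidation genes varied between tissues. Of the 31 genes, 22 were tested in all 8 tissues, Hsd17b4 and Acot1 lay under the intensity filter in every tissue, and 22 were called in at least 1 tissue, with 45 calls in all. Inguinal fat had the most calls, 15 of 26 genes tested, 12 higher and 3 lower, where 23.7% of all features were called and 11% were called higher. Its median difference over the 26 genes was 0.28 against -0.02 over all features. Brown fat had 10 of 27 (6 higher, 4 lower; 15% of all features), subcutaneous fat 9 of 26 (1 higher, 8 lower; 19.8% of all features, 11% lower) and gonadal fat 5 of 26, all lower (12.1% of all features, 6.04% lower). Perirenal fat had 4 of 26 (1 higher, 3 lower), a smaller share than the 26.5% of all features. Mesenteric fat had 1 of 24 (0.648% of all features), liver 1 of 27 (1.12% of all features) and muscle 0 of 24 (0.192% of all features).

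The calls in fat depended on the dim arrays to different degrees. With a term for the 4 dim arrays, 0 genes were called in brown, 1 in gonadal, 6 in inguinal, 0 in mesenteric, 3 in perirenal and 1 in subcutaneous fat; the shares of all features called were 0.978%, 0.862%, 3.89%, 0%, 7.2% and 2.31% in the same order. Over the bright arrays alone the counts were 0, 1, 5, 0, 2 and 1, against 0.388%, 0.323%, 2.4%, 0%, 4.72% and 0.652% of all features. In both fits the diet effect rests on high-fat replicates 1 and 2 against the standard arrays, and the second leaves the dim arrays out. With median scaling the counts were 0, 1, 1, 0, 1 and 1, against 0.548%, 0.507%, 1.8%, 0.011%, 5.37% and 0.473% of all features. The calls that held both with the dim-array term and over the bright arrays alone were Eci3 in gonadal, inguinal, perirenal and subcutaneous fat, Acaa1b, Acadl, Crat and Etfdh in inguinal fat and Eci1 in perirenal fat; of these, Eci3 in its 4 depots also held with median scaling. Both bright high-fat arrays lay beyond every standard array in the direction of the call for 3 of 10 calls in brown, 3 of 5 in gonadal, 7 of 15 in inguinal, 1 of 1 in mesenteric, 4 of 4 in perirenal and 7 of 9 in subcutaneous fat. These arrays are also part of the test that made the calls. The same share over all called features was not computed, so these counts show nothing particular to the pathway.

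**Figure D2:**
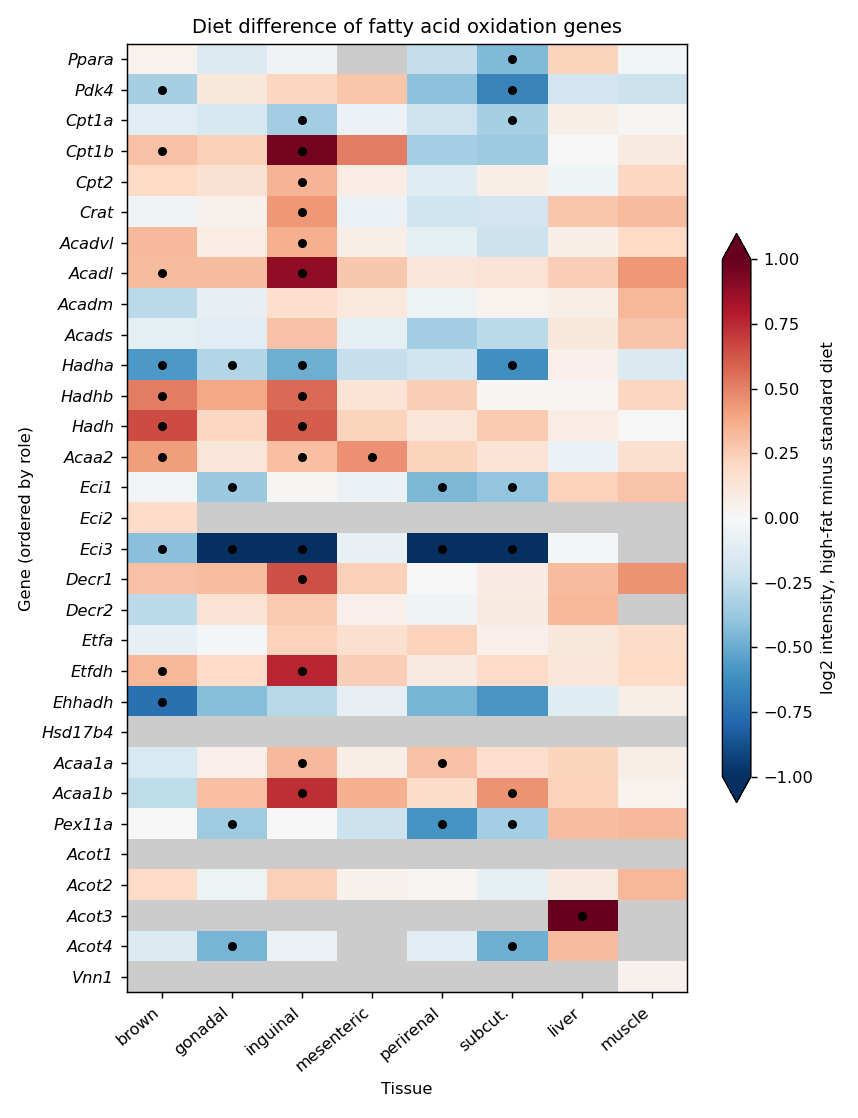
Difference in log2 intensity between the high-fat and the standard diet (colour, from blue for lower to red for higher, ends set at -1 and 1) for 31 genes ordered by role (y axis) in 8 tissues (x axis). Black dots mark the 45 calls, and grey cells mark genes under the intensity filter; the red block lies in inguinal fat and the darkest blue cells are those of Eci3.

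Ppara, the receptor that switches on much of the pathway, was tested in 7 tissues and called in 1, subcutaneous fat, where it fell. Its values there were 7.29 to 7.74 (median 7.59) on the standard diet and 6.86 to 7.33 (median 7.14) on the high-fat diet, a difference of -0.44 ± 0.11 (adjusted p = 0.0108). The groups overlapped. Against the standard mean, the bright high-fat arrays differed by -0.23 and the dim ones by -0.55. The call was lost with the dim-array term, over the bright arrays alone and with median scaling. In brown fat, where Ppara is most abundant, the difference was 0.04 ± 0.15 (adjusted p = 0.887). In liver the values were 7.26 to 7.92 (median 7.53) on the standard diet and 7.33 to 8.22 (median 7.81) on the high-fat diet, and the difference of 0.23 ± 0.14 (adjusted p = 0.662) did not pass. The remaining differences were -0.14 ± 0.10 in gonadal, -0.03 ± 0.11 in inguinal and -0.24 ± 0.10 in perirenal fat and -0.03 ± 0.09 in muscle. The mesenteric probe signal lay under the filter.

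Pdk4 fell in subcutaneous fat, where the values were 12.96 to 13.64 (median 13.08) on the standard diet and 11.98 to 12.75 (median 12.55) on the high-fat diet. No array of one diet overlapped the other, and the difference was -0.67 ± 0.14 (adjusted p = 0.00443). Brown fat had 14.84 to 15.46 (median 15.22) on the standard diet and 14.57 to 15.05 (median 14.90) on the high-fat diet and a difference of -0.33 ± 0.11 (adjusted p = 0.0471), with overlapping groups; this call was lost when any 1 of 9 arrays was left out. In perirenal fat Pdk4 measured 12.29 to 14.00 (median 12.56) on the standard diet and 11.86 to 13.17 (median 12.39) on the high-fat diet, and the difference of -0.41 ± 0.31 (adjusted p = 0.339) did not pass; muscle had a difference of -0.21 ± 0.10 (adjusted p = 0.57) and liver of -0.19 ± 0.11 (adjusted p = 0.609). Gonadal, inguinal and mesenteric fat differed by 0.11 ± 0.21, 0.21 ± 0.19 and 0.28 ± 0.21, none of them called.

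Among the genes of the carnitine shuttle, Cpt1b rose in inguinal fat by 0.95 ± 0.19 (adjusted p = 0.00262), the largest rise of any oxidation gene in fat. Its values were 9.69 to 10.88 (median 10.27) on the standard diet and 10.65 to 11.65 (median 11.35) on the high-fat diet; the bright high-fat arrays, at 10.85 and 10.65, lay under the highest standard array, and the call was lost with a term for the dim arrays. In brown fat it rose by 0.29 ± 0.09 (adjusted p = 0.0343), with values of 13.73 to 14.11 (median 13.92) on the standard diet and 13.96 to 14.34 (median 14.26) on the high-fat diet, a difference that turned to -0.10 (not called) under median scaling and lost its call when any 1 of 7 arrays was left out. In mesenteric fat the values were 8.43 to 9.10 (median 8.79) on the standard diet and 9.11 to 9.72 (median 9.19) on the high-fat diet, without overlap, yet the difference of 0.51 ± 0.14 (adjusted p = 0.11) did not pass. Perirenal Cpt1b was spread over 9.98 to 12.39 (median 10.72) on the standard diet and 9.86 to 11.44 (median 10.87) on the high-fat diet, beside the uneven skeletal muscle markers there; their part was not tested. In subcutaneous fat the difference was -0.36 ± 0.19 (adjusted p = 0.187), in gonadal fat 0.24 ± 0.17 (adjusted p = 0.38) and in liver 0.01 ± 0.07 (adjusted p = 0.991).

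Cpt1a, the liver-type isoform, fell where it was called. It fell by 0.35 ± 0.12 (adjusted p = 0.0444) in inguinal fat, where it measured 7.84 to 8.29 (median 8.18) on the standard diet and 7.39 to 8.03 (median 7.85) on the high-fat diet. In subcutaneous fat it measured 7.84 to 8.42 (median 8.07) on the standard diet and 7.51 to 7.96 (median 7.80) on the high-fat diet and fell by 0.33 ± 0.11 (adjusted p = 0.038), and the groups overlapped in both tissues. The inguinal call was lost without standard replicates 1, 2, 5 or 6 or high-fat replicates 3 or 4 (adjusted p = 0.0779 to 0.101), and the subcutaneous call without standard replicates 1, 2, 5 or 6 or high-fat replicates 3 or 5 (adjusted p = 0.0554 to 0.0845). In liver, where Cpt1a is the known main isoform, the difference was 0.06 ± 0.08 (adjusted p = 0.896), and in muscle 0.01 ± 0.06 (adjusted p = 0.983). The 1 Cpt1a probe tested was low in every tissue, in the range where the background offset shrinks differences. Its standard-diet means ran from 7.46 to 7.95 with all arrays normalized together. Brown, gonadal, mesenteric and perirenal fat had differences of -0.12 ± 0.07, -0.16 ± 0.11, -0.06 ± 0.09 and -0.21 ± 0.09. Cpt2, which turns the carnitine ester back into acyl-CoA on the inner membrane, rose by 0.34 ± 0.09 (adjusted p = 0.0168) in inguinal fat and was not called elsewhere. Crat, the carnitine acetyltransferase that buffers acetyl-CoA, rose in inguinal fat, where it measured 11.68 to 12.15 (median 11.88) on the standard diet and 12.12 to 12.51 (median 12.32) on the high-fat diet and 1 standard array lay within the high-fat range. The difference of 0.43 ± 0.09 (adjusted p = 0.00363) was 0.57 ± 0.12 (adjusted p = 0.0142) with the dim-array term and 0.55 ± 0.12 (adjusted p = 0.0465) over the bright arrays alone.

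In the mitochondrial spiral, Acadl rose in inguinal fat by 0.89 ± 0.11 (adjusted p = 9.39e-05). Its values were 8.68 to 9.15 (median 9.03) on the standard diet and 9.55 to 10.09 (median 9.99) on the high-fat diet, with a clear gap between the groups. Both bright high-fat arrays (9.63 and 9.55) were also above every standard array, and the difference was 0.62 ± 0.13 (adjusted p = 0.0421) over the bright arrays. Acadl was also called in brown fat at 0.32 ± 0.09 (adjusted p = 0.0251), where the values were 11.47 to 11.79 (median 11.60) on the standard diet and 11.79 to 12.12 (median 11.91) on the high-fat diet and median scaling turned the difference to -0.14 (not called); the call was also lost without standard replicates 2 or 3 or high-fat replicates 4 or 5 (adjusted p = 0.0511 to 0.0635). Acadvl, which starts the spiral on the longest chains, rose in inguinal fat by 0.35 ± 0.09 (adjusted p = 0.0146) and was not called elsewhere. The medium-chain enzyme Acadm and the short-chain enzyme Acads were called in no tissue by their brightest probes; in inguinal fat they differed by 0.17 ± 0.10 (adjusted p = 0.199) and 0.30 ± 0.12 (adjusted p = 0.0813).

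Hadhb and Hadh, which carry out later steps of the spiral, rose in the same 2 tissues. Hadhb encodes the beta subunit of the trifunctional protein, with the thiolase. It measured 14.50 to 15.18 (median 14.72) on the standard diet and 14.89 to 15.52 (median 15.39) on the high-fat diet in brown fat, a difference of 0.51 ± 0.13 (adjusted p = 0.0185), and 13.24 to 13.73 (median 13.46) on the standard diet and 13.71 to 14.36 (median 14.09) on the high-fat diet in inguinal fat, a difference of 0.57 ± 0.12 (adjusted p = 0.00436); the groups overlapped in both, and the brown fat call was lost without high-fat replicates 4 or 6 (adjusted p = 0.0502 to 0.0511). Hadh, the short-chain hydroxyacyl-CoA dehydrogenase, had the largest rise in brown fat, 0.65 ± 0.10 (adjusted p = 0.000851), and its values of 9.94 to 10.11 (median 10.03) on the standard diet and 10.22 to 10.84 (median 10.73) on the high-fat diet did not overlap. Its inguinal rise was 0.61 ± 0.14 (adjusted p = 0.0064). Beside the brown fat calls, 5 of 6 macrophage markers tested there were called higher (1 with the dim-array term). Their sums were 2832 to 7780 on the standard and 5667 to 13136 on the high-fat diet, and their part was not tested. Acaa2, the mitochondrial thiolase, rose in brown fat by 0.42 ± 0.13 (adjusted p = 0.0437), in inguinal fat by 0.30 ± 0.09 (adjusted p = 0.0234) and in mesenteric fat by 0.46 ± 0.08 (adjusted p = 0.0216). The mesenteric rise was the only call of a pathway gene there. Its values were 12.51 to 12.95 (median 12.78) on the standard diet and 13.16 to 13.37 (median 13.21) on the high-fat diet, with no overlap. This call was lost without standard replicates 3 or 6 or high-fat replicate 3 (adjusted p = 0.0547 to 0.0715), and also with the dim-array term and with median scaling. The inguinal call was lost without standard replicate 1 or high-fat replicates 5 or 6 (adjusted p = 0.0514 to 0.0557), and the brown fat call without any 1 of 9 arrays.

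Hadha, the alpha subunit that partners Hadhb, was lower by its brightest probe in 4 fat tissues. It fell by 0.58 ± 0.11 (adjusted p = 0.00252) in brown fat, where the values were 11.20 to 11.59 (median 11.45) on the standard diet and 10.60 to 11.19 (median 10.80) on the high-fat diet. In subcutaneous fat it fell by 0.62 ± 0.10 (adjusted p = 0.000761), with 10.09 to 10.55 (median 10.33) on the standard diet and 9.57 to 9.91 (median 9.72) on the high-fat diet. It also fell by 0.49 ± 0.11 (adjusted p = 0.00585) in inguinal fat, where it measured 9.76 to 10.31 (median 10.11) on the standard diet and 9.26 to 9.73 (median 9.63) on the high-fat diet, and by 0.29 ± 0.08 (adjusted p = 0.0341) in gonadal fat, where leaving out any 1 of 7 arrays ended the call. In all 4 tissues the groups did not overlap. The probe table annotates this probe to a GenBank cDNA and not to a RefSeq transcript, and the gene's second probe, annotated to RefSeq, did not show this fall, so that the direction of Hadha rests on 1 probe.

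Hadha and Hadhb lie head to head on chromosome 5, and their start regions are shown because the pair moved in opposite directions on the brightest probes. In RefSeq on GRCm38.p6 the annotated starts are 273 bases apart, and the 300-base windows (250 bases before to 50 after each start) share 228 bases. The Hadhb window, chr5:30155003-30155302 on the plus strand, is printed with those shared bases in capitals; the Hadha window is chr5:30154931-30155230 on the minus strand.
Hadhb: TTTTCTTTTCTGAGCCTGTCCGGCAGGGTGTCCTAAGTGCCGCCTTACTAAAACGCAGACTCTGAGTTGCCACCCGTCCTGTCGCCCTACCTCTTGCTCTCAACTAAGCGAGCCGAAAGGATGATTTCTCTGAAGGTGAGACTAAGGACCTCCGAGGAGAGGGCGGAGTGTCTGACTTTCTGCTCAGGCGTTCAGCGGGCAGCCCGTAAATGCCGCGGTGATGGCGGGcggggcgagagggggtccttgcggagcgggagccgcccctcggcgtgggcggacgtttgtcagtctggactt

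**Figure D3:**
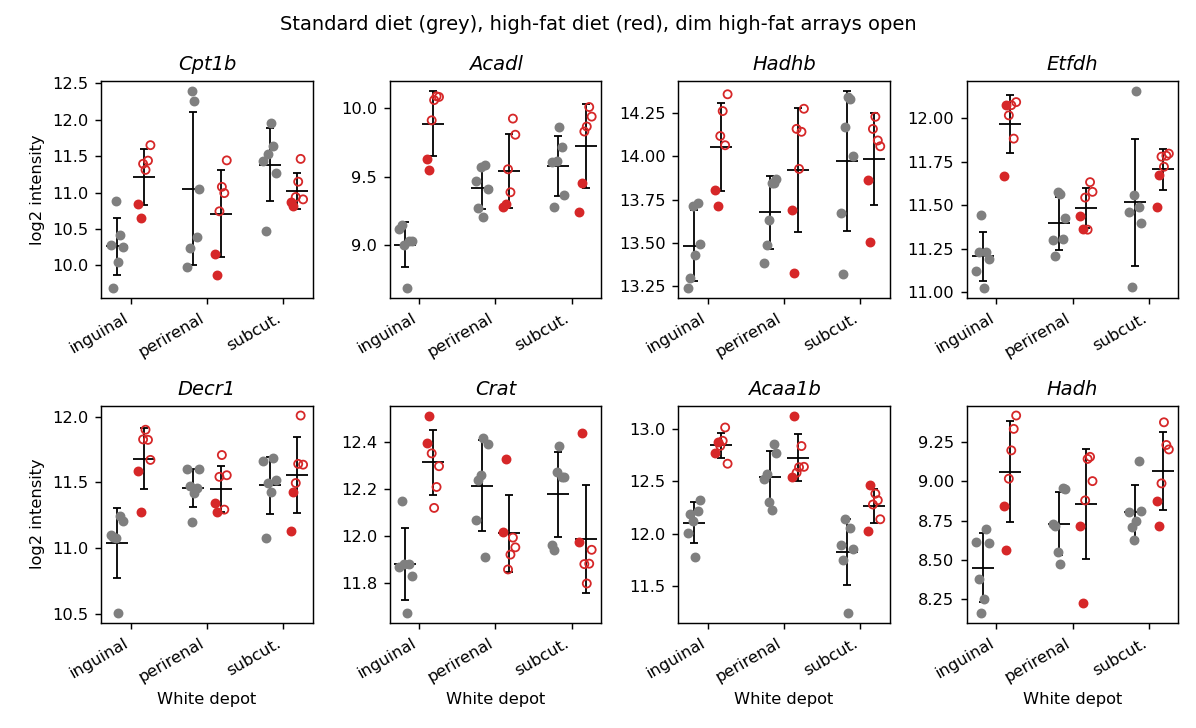
Log2 intensity of every array (y axis, its own range in each panel) for 8 genes called in inguinal fat, in inguinal, perirenal and subcutaneous fat (x axis), with the mean and SD of 6 arrays in black. Grey points are the standard diet, red points the high-fat diet, and open points the 4 dim arrays; the red points of Acadl, Etfdh, Acaa1b and Decr1 in inguinal fat lie above all grey ones.

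Markers of other cells moved in inguinal fat with these rises. Of 6 brown adipocyte markers tested, 3 were called, all higher: Ucp1, the heat-producing uncoupler, by 2.22 ± 0.36 (adjusted p = 0.000639), Elovl3 by 1.38 ± 0.16 (adjusted p = 3.91e-05) and Otop1 by 0.78 ± 0.18 (adjusted p = 0.00754). Cidea and Cox8b, of the same list, had differences of -0.32 ± 0.21 and -0.24 ± 0.15 and were not called. The summed intensity of the list was 22532 to 54874 on the standard diet and 36490 to 67528 on the high-fat diet, with overlap, and Zic1, a defining gene of classical brown fat, stayed under the filter. Of 7 macrophage markers, 6 were also called higher in inguinal fat (2 with the dim-array term), with sums of 20209 to 34085 and 29938 to 49608. In subcutaneous fat, where 8 oxidation genes fell and 1 rose, 2 of 6 brown markers tested were called, Cidea and Cox8b, which fell by 1.50 and 1.10 on the log2 scale. The other 4 had differences from -0.39 for Elovl3 to 0.16 for Ucp1. The list's sum was 67184 to 137507 on the standard diet and 53098 to 64284 on the high-fat diet, without overlap. There, 4 of 5 lymphocyte markers were also called lower (0 with the dim-array term), with overlapping sums of 7193 to 19099 and 6165 to 9585. In gonadal fat skeletal muscle markers summed to 6364 to 82464 on the standard diet and 5154 to 7314 on the high-fat diet. The part of all these markers in the oxidation genes was not tested.

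Among the enzymes that deal with double bonds, Eci3 gave the largest differences of any gene of the pathway. Eci3, a peroxisomal enoyl-CoA isomerase that shifts a double bond into the position the spiral can use, fell in 5 of the 6 fat tissues. In perirenal fat it fell by 1.78 ± 0.10 (adjusted p = 2.24e-07), with values of 8.80 to 9.24 (median 8.97) on the standard diet and 6.98 to 7.47 (median 7.20) on the high-fat diet. Gonadal fat had 8.71 to 9.04 (median 8.93) on the standard diet and 7.02 to 7.58 (median 7.25) on the high-fat diet, a fall of 1.63 ± 0.10 (adjusted p = 8.01e-07). In both depots every high-fat array lay more than 1 log2 unit below the lowest standard array.

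Subcutaneous and inguinal fat also showed separate groups. Subcutaneous Eci3 fell by 1.42 ± 0.17 (adjusted p = 6.49e-05), with 8.67 to 9.42 (median 9.08) on the standard diet and 7.14 to 7.97 (median 7.76) on the high-fat diet. Inguinal Eci3 fell by 1.18 ± 0.13 (adjusted p = 1.92e-05), with 8.07 to 8.75 (median 8.33) on the standard diet and 6.91 to 7.34 (median 7.22) on the high-fat diet, again with no overlap. Brown fat showed a smaller fall of 0.41 ± 0.09 (adjusted p = 0.00761) with overlapping groups, at 8.12 to 8.46 (median 8.31) on the standard diet and 7.67 to 8.16 (median 7.90) on the high-fat diet, and this call was lost with the dim-array term and with median scaling. Mesenteric fat had a difference of -0.08 ± 0.17 (adjusted p = 0.85). Its values were 7.83 to 8.20 (median 7.96) on the standard diet and 7.35 to 8.44 (median 7.94) on the high-fat diet, so that the high-fat arrays were spread on both sides of the standard ones. In liver the difference was -0.01 ± 0.08 (adjusted p = 0.981), with values of 6.47 to 6.76 (median 6.59) on the standard diet and 6.45 to 6.84 (median 6.59) on the high-fat diet, and in muscle the probe lay under the filter. The liver values were low on both diets, in the range where the background offset shrinks differences, so that a fall there could be missed.

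The fall of Eci3 in gonadal, inguinal, perirenal and subcutaneous fat was called under 8 alternative settings, again where all probes of every gene were tested, and without any single array. Over the bright arrays alone it was -1.55 ± 0.12 (adjusted p = 0.000736), -1.20 ± 0.20 (adjusted p = 0.019), -1.78 ± 0.15 (adjusted p = 0.00111) and -1.23 ± 0.21 (adjusted p = 0.0297) in these 4 depots. With median scaling it was -1.76, -1.33, -1.88 and -1.57. Macrophage markers moved the other way in these depots, with 6 of 7 called higher in gonadal, inguinal and subcutaneous fat and 7 of 7 in perirenal fat. With the dim-array term 1 of these markers was called in gonadal, 2 in inguinal, 5 in perirenal and 1 in subcutaneous fat. Their summed intensity in perirenal fat was 15414 to 31924 on the standard and 45789 to 78119 on the high-fat diet. Mesothelium markers were called lower for 3 of 5 in perirenal fat (2 with the dim-array term) and for 2 of 5 in gonadal fat (0 with that term). Their sums were 3139 to 6361 on the standard and 2418 to 3488 on the high-fat diet in perirenal fat, and 8754 to 13211 and 6905 to 9754 in gonadal fat. Of 6 brown adipocyte markers in perirenal fat, 2 were called lower and 1 higher (2 lower and 0 higher with the dim-array term). The part of these markers in the fall of Eci3 was not tested. The start region of Eci3 is shown because no other gene of the pathway moved as far: chr13:34963760-34964059 on the minus strand, GRCm38.p6, from RefSeq, with the 50 bases from the annotated start onward in capitals. The sequence AGGTCA, the core element of sites bound by PPAR alpha and related receptors, was not found in this window on either strand. It was found in 16.3% of all 32851 promoter windows of the same length, so that most windows lack it.
Eci3: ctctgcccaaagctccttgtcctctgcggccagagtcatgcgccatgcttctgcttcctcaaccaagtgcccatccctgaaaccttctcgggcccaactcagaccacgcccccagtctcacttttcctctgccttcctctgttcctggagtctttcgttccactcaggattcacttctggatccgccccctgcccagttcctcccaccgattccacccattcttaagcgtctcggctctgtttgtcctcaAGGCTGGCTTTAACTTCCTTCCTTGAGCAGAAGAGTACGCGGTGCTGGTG

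**Figure D4:**
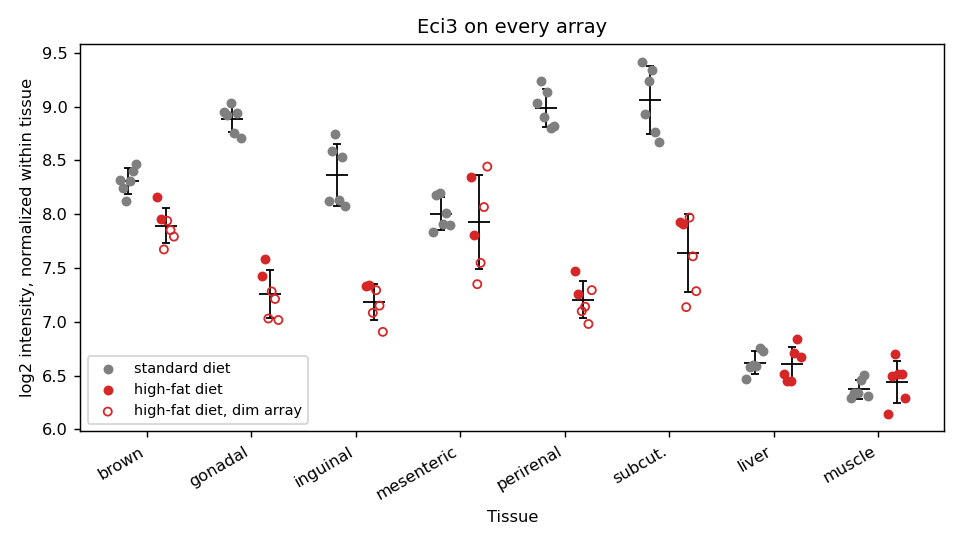
Log2 intensity of Eci3 (y axis) on every array of the 8 tissues (x axis), with standard-diet arrays in grey, high-fat arrays in red, the 4 dim arrays of each fat tissue open, and the mean and SD of 6 arrays in black. The groups are apart in gonadal, inguinal, perirenal and subcutaneous fat, whether or not the dim arrays are counted, and lie together in mesenteric fat, liver and muscle.

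Eci1, the mitochondrial isomerase of the same reaction, fell in 3 of these depots. Perirenal Eci1 fell by 0.45 ± 0.09 (adjusted p = 0.0028), with values of 12.80 to 13.09 (median 12.87) on the standard diet and 12.26 to 12.67 (median 12.40) on the high-fat diet and no overlap, and was -0.53 ± 0.10 (adjusted p = 0.0251) over the bright arrays; with median scaling it just missed the threshold (adjusted p = 0.0511). It fell by 0.40 ± 0.11 (adjusted p = 0.0203) in subcutaneous and by 0.37 ± 0.10 (adjusted p = 0.0241) in gonadal fat, at 12.71 to 13.22 (median 12.88) on the standard diet and 12.44 to 12.82 (median 12.50) on the high-fat diet, with overlapping groups, and these calls were lost with the dim-array term. The subcutaneous call was also lost without high-fat replicate 3 (adjusted p = 0.0537) and the gonadal call without standard replicate 4 or high-fat replicates 3 or 6 (adjusted p = 0.0514 to 0.0599). In inguinal fat it differed by 0.01 ± 0.07 (adjusted p = 0.929). Eci2 passed the filter only in brown fat, where it differed by 0.19 ± 0.11 (adjusted p = 0.217). Decr1, the mitochondrial dienoyl-CoA reductase, rose in inguinal fat by 0.64 ± 0.13 (adjusted p = 0.00297), with values of 10.51 to 11.25 (median 11.09) on the standard diet and 11.27 to 11.90 (median 11.75) on the high-fat diet, without overlap but with a lost call over the bright arrays. Decr2 was called in none of 7 tissues; its largest difference was in liver, 0.33 ± 0.09 (adjusted p = 0.0894).

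Of the electron carriers, Etfdh rose most in inguinal fat, by 0.76 ± 0.09 (adjusted p = 6.32e-05). Its values were 11.02 to 11.44 (median 11.21) on the standard diet and 11.67 to 12.09 (median 12.05) on the high-fat diet, apart from each other, with 11.67 and 12.08 on the bright high-fat arrays. The difference was 0.66 ± 0.14 (adjusted p = 0.0383) over the bright arrays alone. In brown fat Etfdh rose by 0.33 ± 0.09 (adjusted p = 0.0202), and median scaling turned this to -0.078 (not called); it was also lost without high-fat replicate 3 (adjusted p = 0.0505). Etfa, a subunit of the flavoprotein that feeds Etfdh, was called in no tissue by its brightest probe and differed by 0.23 ± 0.12 (adjusted p = 0.181) in inguinal fat.

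Among the peroxisomal enzymes, the thiolase Acaa1b rose in inguinal fat by 0.74 ± 0.10 (adjusted p = 0.000107). It measured 11.77 to 12.32 (median 12.16) on the standard diet and 12.67 to 13.02 (median 12.86) on the high-fat diet, without overlap, with a difference of 0.70 ± 0.14 (adjusted p = 0.0305) over the bright arrays. Subcutaneous Acaa1b was the only gene of the pathway whose brightest probe was called higher there, by 0.45 ± 0.13 (adjusted p = 0.027). It measured 11.24 to 12.13 (median 11.87) on the standard diet and 12.02 to 12.46 (median 12.30) on the high-fat diet, with overlap, and that call was lost without high-fat replicates 3, 4 or 5 (adjusted p = 0.054 to 0.0586). Its near copy Acaa1a, whose transcript a probe may partly share, rose by 0.32 ± 0.09 (adjusted p = 0.0136) in inguinal and by 0.29 ± 0.08 (adjusted p = 0.0176) in perirenal fat, at 13.32 to 13.79 (median 13.58) on the standard diet and 13.76 to 13.91 (median 13.88) on the high-fat diet. Ehhadh, the peroxisomal bifunctional enzyme and a textbook PPAR alpha target in liver, fell in brown fat by 0.75 ± 0.24 (adjusted p = 0.0472). Its values were 9.27 to 10.63 (median 9.53) on the standard diet and 8.29 to 9.48 (median 9.22) on the high-fat diet, with overlap, and this call was lost when any 1 of 10 of the 12 arrays was left out (adjusted p up to 0.0989). In liver Ehhadh differed by -0.12 ± 0.11 (adjusted p = 0.809).

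Pex11a, which drives peroxisome division, fell in 3 white depots. It fell by 0.59 ± 0.12 (adjusted p = 0.00264) in perirenal fat, with values of 12.20 to 12.82 (median 12.55) on the standard diet and 11.71 to 12.10 (median 11.96) on the high-fat diet that did not overlap. In subcutaneous fat it fell by 0.34 ± 0.08 (adjusted p = 0.00856), also without overlap, and in gonadal fat by 0.35 ± 0.09 (adjusted p = 0.0232) with overlap, a call lost without high-fat replicates 3, 5 or 6 (adjusted p = 0.0503 to 0.057). None of these calls held with the dim-array term, although both bright high-fat arrays in perirenal fat (12.10 and 11.99) lay below every standard array. A second Pex11a probe was also called lower in perirenal and subcutaneous fat, with differences of -0.41 and -0.33. Hsd17b4, the other peroxisomal bifunctional enzyme, lay under the filter in every tissue, with means from 5.87 to 6.40.

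Of the thioesterases, Acot3, a peroxisomal enzyme that is a known PPAR alpha target in mouse liver, was the only pathway gene called in liver. It rose by 1.22 ± 0.25 (adjusted p = 0.0232), about 2.33-fold. Its values were 5.97 to 7.45 (median 6.79) on the standard diet and 7.30 to 8.55 (median 8.01) on the high-fat diet, so that both groups were spread over more than 1 log2 unit and overlapped slightly. The call was lost with median scaling (1.21 ± 0.29, adjusted p = 0.303) and without standard replicate 2 or high-fat replicates 1, 5 or 6 (adjusted p = 0.0525 to 0.0736). The level on the standard diet was low, in the range where the background offset shrinks differences. Acot3 passed the filter only in liver. Its start region, chr12:84051894-84052193 on the plus strand of GRCm38.p6 from RefSeq, is shown because it holds AGGTCA on the minus strand, in capitals as TGACCT. This sequence lies past the annotated start, within the last 50 bases of the window. It was found in 16.3% of all 32851 promoter windows, and binding to it was not tested.
Acot3: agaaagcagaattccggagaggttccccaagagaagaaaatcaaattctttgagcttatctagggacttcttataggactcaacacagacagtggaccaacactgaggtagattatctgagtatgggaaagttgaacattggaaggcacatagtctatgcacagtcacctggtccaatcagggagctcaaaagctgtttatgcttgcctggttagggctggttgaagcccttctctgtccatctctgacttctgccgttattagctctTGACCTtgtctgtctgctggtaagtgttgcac

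Acot4, the peroxisomal enzyme for succinyl-CoA, fell by 0.46 ± 0.14 (adjusted p = 0.0443) in gonadal fat and by 0.49 ± 0.12 (adjusted p = 0.0113) in subcutaneous fat, at 7.17 to 7.64 (median 7.36) on the standard diet and 6.53 to 7.19 (median 6.99) on the high-fat diet, with overlap in both. The mean of subcutaneous Acot4 on the high-fat diet, 6.90, lay under the filter value of 7.02, so that it passed the filter through the standard arrays. The gonadal call was lost under 8 alternative settings and held, at an adjusted p of 0.0456, where all probes of every gene were tested. Acot2, the mitochondrial member, was called in none of 8 tissues by its brightest probe, while its second probe fell in perirenal fat, with a difference of -0.29 ± 0.10 (adjusted p = 0.0459), and in subcutaneous fat, with -0.29 ± 0.08 (adjusted p = 0.0242). Acot1, the cytosolic one, lay under the filter everywhere, with means between 6.28 and 6.54. Acot1 and Acot2 are near copies, so their probes may not be fully specific. Vnn1, the pantetheinase that recycles part of coenzyme A, passed the filter only in muscle, where it differed by 0.04 ± 0.08 (adjusted p = 0.934).

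Promoters of 25 of the genes were in the RefSeq table. AGGTCA was found on either strand in 5 of them (Acadm, Acadvl, Acot3, Acot4 and Cpt1a), against 16.3% of all 32851 promoter windows of the same length. The tandem of 2 copies of AGGTCA spaced by 1 base was found in 0 of them and in 13 of all windows. By their brightest probes these 5 genes did not share a direction: Acot3 rose in liver, Acadvl rose in inguinal fat, Cpt1a and Acot4 fell in white fat, and Acadm was not called. The second Acadm probe was called higher in inguinal, perirenal, brown and subcutaneous fat.

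In liver most of the pathway lay slightly higher on the high-fat diet. Of 27 genes, 22 had a difference above 0, with a median of 0.11 against 0.00 over all features, and Acot3 was the 1 gene called. At an unadjusted p under 0.05 there were 8 genes, all higher, where 10.2% of all features had one in either direction. Decr2 came closest, with 8.04 to 8.30 (median 8.14) on the standard diet and 8.27 to 8.77 (median 8.41) on the high-fat diet and 0.33 ± 0.09 (adjusted p = 0.0894), followed by Acot4 at 0.32 ± 0.09 (adjusted p = 0.149) and Crat at 0.27 ± 0.08 (adjusted p = 0.152). With median scaling 19 of the 27 were above 0, with a median of 0.06.

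In muscle most of the pathway also lay higher, without a call. Of 24 genes, 21 had a difference above 0, with a median of 0.19 against 0.00 over all features, and limma called 0. At an unadjusted p under 0.05 there were 10, all higher, where 8.95% of all features had one in either direction. Crat was nearest, at 0.31 ± 0.07 (adjusted p = 0.0713), with values of 11.92 to 12.16 (median 12.04) on the standard diet and 12.25 to 12.52 (median 12.30) on the high-fat diet that did not overlap. Decr1 followed at 0.45 ± 0.10 (adjusted p = 0.0892) and Acadl at 0.44 ± 0.10 (adjusted p = 0.104), with values of 8.22 to 8.58 (median 8.36) on the standard diet and 8.47 to 9.12 (median 8.72) on the high-fat diet that overlapped. Under median scaling 9 of the 24 were above 0 with a median of -0.04, against -0.09 over all features, so that the direction depended on the scaling. Cpt1b, the main isoform of muscle, differed by 0.09 ± 0.07 (adjusted p = 0.776).

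The diet effects were compared between tissues in 1 fit over all arrays, treated as independent, although the labels do not say which arrays came from the same mouse. They differed between the 8 tissues for 15 of 29 genes, against 24.2% of all features. The smallest p belonged to Eci3 (adjusted p = 1.29e-19), followed by Eci1 (1.01e-08), Acot3 (1.65e-05), Pex11a (1.69e-05) and Crat (0.000165). With median scaling 2 genes passed, where 1005 of 22336 features did. Against the mean diet effect of the 5 white depots, 3 genes differed in brown fat (3.63% of all features). Eci3 fell less there, by 0.80 ± 0.14 (adjusted p = 3.9e-05), while Acaa1b and Acaa1a were relatively lower, by -0.66 ± 0.16 (adjusted p = 0.00662) and -0.33 ± 0.08 (adjusted p = 0.00668). Liver differed for 6 genes (13.3% of all features), all with a higher diet effect than white fat: Eci3, Acot3, Pex11a, Acot4, Eci1 and Hadha. Muscle differed for 6 (10.9% of all features), also all higher: Eci3, Pex11a, Eci1, Acads, Crat and Acot2. The dim high-fat arrays were found only in fat, so that array difference also enters the comparisons of liver and muscle with white fat. The white-fat calls of Pex11a, Acot4 and Hadha were lost with the dim-array term. With brightness as a covariate 4 genes passed for liver and 3 for muscle, where 2255 and 658 of 22262 features did. The mean effect over the 8 tissues passed for 19 of 29 genes, 13 higher and 6 lower, against 58.2% of all features. Median scaling gave 2 higher and 11 lower, where 14911 of 22336 features passed.

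Probes of the same gene did not always give the same answer. Among 101 pairs of a gene and a tissue with more than 1 tested probe, all probes were called in 5, some in 29 and none in 67. The second Hadha probe rose by 0.43 ± 0.11 (adjusted p = 0.0191) in gonadal, 0.47 ± 0.13 (adjusted p = 0.015) in inguinal and 0.42 ± 0.07 (adjusted p = 0.000929) in perirenal fat, opposite to the brightest probe. Its standard-diet means there, 6.83, 6.89 and 6.80, lay under the filter values of 7.05, 7.03 and 7.01, so that it passed the filter only through the high-fat arrays, and its rise supports no direction. For Etfa and Acadm the second probes were called where the brightest was not: Etfa rose by 0.45 ± 0.11 (adjusted p = 0.0095) in inguinal and 0.56 ± 0.11 (adjusted p = 0.00381) in brown fat, and Acadm by 0.74 ± 0.12 (adjusted p = 0.000863) in inguinal, 0.43 ± 0.10 (adjusted p = 0.00747) in perirenal and 0.38 ± 0.08 (adjusted p = 0.00872) in brown fat. Both also rose in subcutaneous fat, Acadm by 0.49 ± 0.14 (adjusted p = 0.0224) and Etfa by 0.46 ± 0.13 (adjusted p = 0.0227). The second Hadhb probe rose with the first in inguinal fat, by 0.68 ± 0.16 (adjusted p = 0.00698), but differed by 0.05 ± 0.12 (adjusted p = 0.803) in brown fat. The 2 other Pex11a probes rose in inguinal fat, by 0.29 ± 0.09 (adjusted p = 0.0298) and 0.39 ± 0.12 (adjusted p = 0.0285), where the brightest had a difference of 0.01 ± 0.12. The second Etfdh probe fell in perirenal fat, with a difference of -0.56 ± 0.17 (adjusted p = 0.0284), and the second Cpt1b probe in subcutaneous fat, with -0.65 ± 0.16 (adjusted p = 0.0115). For Etfdh, Hadh and Acadl, named above for their rises, the other probes did not pass in inguinal or brown fat. The 2 Acadl probes differed by 0.26 and 0.89 in inguinal and by 0.14 and 0.32 in brown fat. In brown fat 1 of the 2 Cpt1b probes was called, with differences of 0.006 and 0.29. Of 3 Acaa2 probes, 1 was called in brown fat (0.08 to 0.42) and 1 in mesenteric fat (0.25 to 0.46). The other Etfdh probes had differences of -0.34 ± 0.14 (adjusted p = 0.0813) and -0.04 ± 0.10 (adjusted p = 0.783) in inguinal fat and of -0.26 ± 0.27 (adjusted p = 0.518) and -0.21 ± 0.11 (adjusted p = 0.225) in brown fat. The second Hadh probe had 0.01 ± 0.14 (adjusted p = 0.96) in inguinal and 0.08 ± 0.19 (adjusted p = 0.803) in brown fat. In inguinal fat both probes of Cpt1b and Cpt2 rose, and 2 of the 4 Crat probes. Counting a gene as called when any probe passed gave 18 genes in inguinal, 12 in brown, 13 in subcutaneous and 8 in perirenal fat. In those fits 5244, 3176, 4359 and 5687 of 23316 probes were called, in the same order. A gene with several probes has more chances to be counted, so these counts are not comparable with those of the brightest probes.

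**Figure D5:**
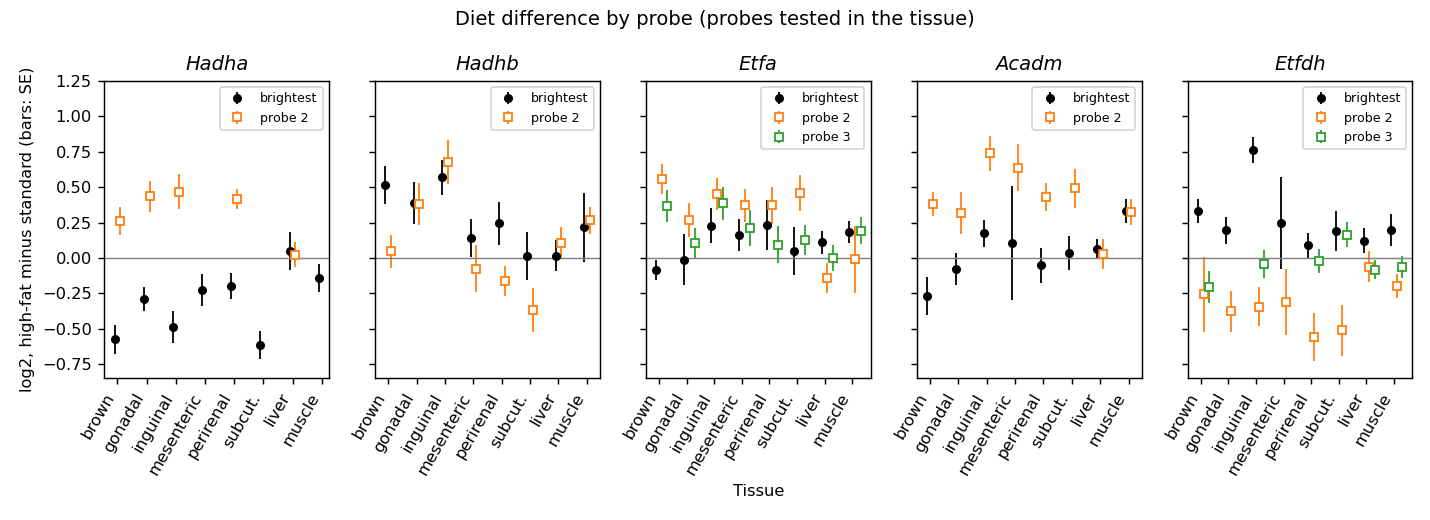
Difference in log2 intensity between diets (y axis, bars are standard errors) in 8 tissues (x axis) for each tested probe of Hadha, Hadhb, Etfa, Acadm and Etfdh; black points are the brightest probe and open squares the others. The 2 Hadha probes lie on opposite sides of 0 in brown, gonadal, inguinal and perirenal fat.

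Among other genes of oxidation in the white depots, most calls were falls. Of 18 other mitochondrial oxidation genes tested in each white depot, 5 fell in gonadal, 4 in inguinal, 1 in mesenteric, 5 in perirenal and 4 in subcutaneous fat, and 1, Acat1, rose, in inguinal fat. The shares of all features called lower were 6.04%, 12.6%, 0.395%, 13.3% and 11% in the same order. With the dim-array term 1 gene of this list was called, Ivd in perirenal fat, at -0.63 ± 0.14 (adjusted p = 0.0178). Echs1, the hydratase of the spiral, fell in all 5, with differences of -0.67 ± 0.11 in gonadal and -0.65 ± 0.11 in perirenal fat. Ivd, which oxidizes a leucine intermediate, changed by -0.78 ± 0.10, -0.68 ± 0.12, -0.79 ± 0.11 and -0.33 ± 0.09 in gonadal, inguinal, perirenal and subcutaneous fat, all called. Among the other peroxisomal genes, 4 of 11 fell in brown fat, where 8.25% of all features were called lower, including the acyl-CoA transporter Abcd3, with a difference of -0.69 ± 0.12 (adjusted p = 0.00193), and the import receptor Pex5, with -0.57 ± 0.12 (adjusted p = 0.00487). In the same list 3 of 11 fell in perirenal and in subcutaneous fat. All of these calls were lost with the dim-array term. Of 3 ketone body genes tested in liver 1 was called (1.12% of all features). This was Bdh1, which interconverts the ketone bodies and rose by 0.46 ± 0.10 (adjusted p = 0.03). In fat, 1 of 2 genes of this list was called lower in inguinal, 1 of 3 higher in perirenal and 1 of 3 lower in subcutaneous fat. All features were called at 23.7%, 26.5% and 19.8% there, and 0 ketone body genes were called with the dim-array term.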

How the data were processed

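Total RNA of 8 tissues from mice on 2 diets was labelled with biotin and hybridised to Illumina Mouse-6 BeadChips, per the labels' protocols. The deposited probe intensities are not normalized (11.8 to 71625, array medians 107 to 244, per the file headers). The authors also deposited log2 values. These deposited log2 values equal quantile normalization of the log2 intensities over all 96 arrays to within 0.00191 (median 7.39 on every array); the tools used are not given in the sources used here. Detection p-values were not used here. All columns belong to a sample (0 did not). Arrays correlated at most at 0.994, so that no sample was taken for a copy of another.

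From the intensities, background was corrected with normexp (offset 50) and arrays were quantile normalized, within a tissue for diet effects and over all 96 arrays for levels, in R 4.3.3 with limma 3.58.1. Of 46632 probes, 29976 have 1 gene symbol, 10 several and 16646 none; 29921 were updated through their gene identifier. The brightest probe of each gene and all unnamed probes gave 34367 features. Tests were limma's lmFit and eBayes with Benjamini-Hochberg adjustment, and the procedure was tested on simulated data. Members and lists were chosen with earlier results of these data known. Any member was named; per tissue and other list, called genes with the smallest p were named. The alternatives were the deposited values, no background correction (floor 16), median scaling, no filter, all probes, the replicate block, a covariate for array brightness, a separate term for dim arrays, leaving the dim arrays out and leaving out each array in turn. Nothing states that replicates were pooled; the labels call them biological replicates.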

Additional observations from a re-analysis of the deposited data

Results flagged for a closer look

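Among the 90 groups of 6 arrays behind the 45 calls, 6 held an array far from the other 5, by the gap to its nearest neighbour over the range (critical value 0.625); chance gives about 1 in 20 groups. In brown fat, Hadh was 10.2 on high-fat replicate 2, where the next array was 10.7. In gonadal fat, Eci1 was 12.8 on high-fat replicate 5, inside the standard-diet range. In inguinal fat, standard replicate 4 was lowest for both Acadl, at 8.68, and Decr1, at 10.5. High-fat replicate 4 was lowest there for Hadha, at 9.26, and high-fat replicate 1 for Acaa2, at 14.3. All 6 differences were still called without the array named.

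The diet effect differed between the 8 tissues in limma for 15 genes, with these adjusted p-values: 1.29e-19 for Eci3, 1.01e-08 for Eci1, 1.65e-05 for Acot3, 1.69e-05 for Pex11a, 0.000165 for Crat, 0.00323 for Acadl, 0.00324 for Acaa1a, 0.0033 for Hadha, 0.00413 for Acads, 0.00555 for Acadvl, 0.00723 for Acaa1b, 0.00836 for Cpt1b, 0.0177 for Acot4, 0.0191 for Hadh and 0.0428 for Ppara. Of all features, 24.2% differed. Under median scaling 2 of the genes passed, where 1005 of 22336 features did.

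Brown fat differed from the mean of the 5 white depots for Eci3 by 0.80, for Acaa1b by -0.66 and for Acaa1a by -0.33 (log2, high-fat minus standard). Liver had a higher diet effect than white fat for Eci3 (1.20), Acot3 (1.12), Pex11a (0.61), Acot4 (0.55), Eci1 (0.48) and Hadha (0.42). Muscle had a higher diet effect for Eci3 (1.29), Pex11a (0.62), Eci1 (0.54), Acads (0.39), Crat (0.31) and Acot2 (0.30). Eci3 was under the intensity filter in muscle and Acot3 in white fat, so that those differences rest on the change in 1 of the tissues compared. In liver Eci3 was low on both diets, in the range where the background offset shrinks differences, so that a fall there could be missed. The dim high-fat arrays were found only in fat, and that array difference also enters the liver and muscle comparisons.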

How the results depend on the processing

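Of the 45 called differences, 43 held with the authors' deposited values, 44 without background correction, 39 without the filter on dim probes and 27 with array brightness as a covariate. Of the 44 in fat, 9 held when the dim arrays had a term of their own, and 9 when they were left out. Median scaling kept 4, all Eci3. The number of genes called in brown, gonadal, inguinal, mesenteric, perirenal and subcutaneous fat, in that order, was 0, 1, 1, 0, 1 and 1 with median scaling, 0, 1, 6, 0, 3 and 1 with the dim-array term and 0, 1, 5, 0, 2 and 1 over the bright arrays. It was 3 in brown, 2 in gonadal and 0 in mesenteric fat with the brightness covariate, 8 in perirenal fat when any probe counted, and 0 in liver with median scaling. All features called in these fits were, in the same order, 1195 of 18089, 1204 of 17976, 35 of 18210, 5687 of 23316 (probes) and 10 of 18276. Leaving out 1 array gave 4 to 12 genes in brown, 1 to 7 in gonadal, 13 to 15 in inguinal, 0 to 1 in mesenteric, 4 to 6 in perirenal and 6 to 11 in subcutaneous fat, 0 to 2 in liver and 0 to 1 in muscle. In brown fat median scaling turned Cpt1b to -0.10, Acadl to -0.14 and Etfdh to -0.078. It turned the mean effect over tissues to -0.050 for Decr1, -0.060 for Acaa1b, -0.068 for Etfdh, -0.000803 for Acaa2, -0.043 for Acot2, -0.17 for Acaa1a, -0.18 for Cpt2 and -0.13 for Acadvl. The level against white fat turned, in liver, to -0.48 for Cpt1a, -1.06 for Decr1, -0.47 for Acads, -0.42 for Eci1, -1.08 for Acadl, -0.77 for Pex11a and -0.18 for Acadvl. In muscle it turned to -0.45 for Cpt1a, -0.25 for Decr1, -0.98 for Acads, -0.60 for Eci1, -0.54 for Etfdh, -0.26 for Acadl, -0.018 for Acot2 and -0.13 for Acadvl. Tissue differences passed for 2 genes over the 8 tissues, 1 in brown fat, 2 in liver and 1 in muscle with median scaling, and for 3 in muscle without the filter or with brightness as a covariate. Of all 22336 features, 1005, 103, 655 and 216 passed in the same order with median scaling. In muscle 2074 of 34367 passed without the filter and 658 of 22262 with the covariate. The cause was not tested.

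Same-numbered arrays of the 2 diets did not deviate together in every pair (correlations from -0.39 to 0.60 in mesenteric fat, over 0.1 for 2 to 4 of the 6 pairs in each tissue), so the numbers were not taken to pair samples. With the replicate block, 9 genes were called in brown, 5 in gonadal, 15 in inguinal, 0 in mesenteric, 6 in perirenal and 10 in subcutaneous fat, 3 in liver and 2 in muscle. All features called were, in the same order, 3096 of 18089, 2530 of 17976, 4254 of 17953, 15 of 18210, 4926 of 17934, 3821 of 17978, 295 of 18274 and 66 of 18231. Of the 45 calls, 42 held. With a random replicate block across tissues, 12 genes passed for the mean effect, 5 for brown fat and 10 for liver against white fat. Of all 22262 features, 7724, 1253 and 4401 passed in these tests, against 12967, 809 and 2960 without the block. Hsd17b4, Acot1 and, outside liver, Acot3 lay under the intensity filter, and their diet effects were not tested there.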

Other observations

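Enzymes that make malonyl-CoA, the inhibitor of carnitine palmitoyltransferase, were called lower in fat. Acaca, acetyl-CoA carboxylase of lipid synthesis, was called lower in all 5 white depots, with a difference of -1.61 ± 0.14 (adjusted p = 3.24e-06) in perirenal, -1.45 ± 0.16 (adjusted p = 0.000828) in mesenteric and -1.31 ± 0.13 (adjusted p = 1.33e-05) in subcutaneous fat in limma's test. Acacb, the form at the mitochondrial surface, was called lower in all 6 fat tissues, with differences of -1.97 ± 0.15 (adjusted p = 7.75e-07) in subcutaneous and -0.63 ± 0.09 (adjusted p = 0.000637) in brown fat. In liver Acacb rose instead, by 0.74 ± 0.15 (adjusted p = 0.0162). Of the 17 regulators tested in each, 3 were called in gonadal fat (all lower), 6 in inguinal (2 higher), 5 in perirenal and 4 in subcutaneous fat (all lower), and 1 in brown fat; all features were called at 12.1%, 23.7%, 26.5%, 19.8% and 15% in these tissues. Sirt3, the mitochondrial deacetylase, was lower in gonadal, inguinal, perirenal and subcutaneous fat, with -0.48 ± 0.08 (adjusted p = 0.000604) in perirenal fat. With the dim-array term 1 regulator was called in brown, 2 in gonadal, 3 in inguinal, 3 in perirenal and 2 in subcutaneous fat, all lower, while both mesenteric calls, Acaca and Acacb, were lost (adjusted p = 0.0868 and 0.18).

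Other genes known as PPAR targets were called in both directions. Brown fat had 3 higher and 0 lower of 17 tested, gonadal 3 higher and 1 lower of 18, and inguinal 5 higher and 0 lower of 17. Perirenal fat had 4 higher and 3 lower of 19, and subcutaneous 3 higher and 1 lower of 19. All features were called at 15%, 12.1%, 23.7%, 26.5% and 19.8% in the same order. Hilpda and Plin2, proteins of the lipid droplet, were called higher in gonadal, inguinal and perirenal fat, and Hilpda also in brown and subcutaneous fat. Hilpda rose by 2.01 ± 0.18 (adjusted p = 4.02e-06) in inguinal fat and by 1.67 ± 0.14 (adjusted p = 2.82e-06) in subcutaneous fat, and Plin2 by 0.97 ± 0.10 (adjusted p = 1.78e-05) in inguinal fat. Cidea fell in gonadal fat, with a difference of -1.16 ± 0.14 (adjusted p = 0.000204). Fabp3, which carries fatty acids in oxidative tissue, rose by 1.65 ± 0.15 (adjusted p = 0.000581) in mesenteric fat, where it was the 1 gene called of 15 tested (0.648% of all features). With the dim-array term its rise was 1.38 ± 0.19 (adjusted p = 0.0868). In liver Cyp4a14, a microsomal hydroxylase, rose by 2.14 ± 0.43 (adjusted p = 0.0169) and the desaturase Fads2 by 1.42 ± 0.17 (adjusted p = 0.000276), 2 of 17 tested (1.12% of all features). In muscle the droplet protein Plin5 rose by 0.42 ± 0.07 (adjusted p = 0.02), while Fgf21 had a difference of -1.05 ± 0.20 (adjusted p = 0.0455), 2 of 16 tested (0.192% of all features). Neither was called with brightness as a covariate (adjusted p = 0.0516 and 0.146). Both lists were chosen with earlier results of these data known.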
